A study of Homo sapiens with 15 samples.

Results

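DNA replication and S phase genes were followed in MCF10A cells, an immortalised and non-tumorigenic human breast epithelial line, as glutamine was limited. The group is a list of 48 gene symbols that name the proteins of origin licensing, the replicative helicase, the replicative polymerases, the sliding clamp and its loader, fork protection, chromatin copying and the G1/S switch. All 48 were found among the 62754 Ensembl genes of the count table, and all 48 passed the filter on low counts. The rule that lists them uses no measured value. Wild-type cells grew in glutamine-free DMEM/F12 to which glutamine was added back at 0.04, 0.12, 0.20 or 0.28 mM. Cells in full medium, with the usual 2.5 mM, were the untreated reference. Each of the 5 conditions had 3 biological replicates, numbered 1 to 3, which gave 15 libraries of total RNA from 1 cell line. The labels give no length of the limitation and no cell cycle measurement.

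Eukaryotic replication starts in G1 phase, when the origin recognition complex, CDC6 and CDT1 load rings of MCM2 to MCM7 onto origins. In S phase the kinases CDK and DDK (CDC7 with DBF4) turn these rings into active helicases by adding CDC45 and the GINS complex. Polymerase alpha and primase then lay down primers, polymerases epsilon and delta extend them, and the PCNA clamp, its loader RFC, FEN1 and LIG1 complete the lagging strand. Many of these genes are transcribed by E2F factors as cells leave G1 phase, and glutamine supplies nitrogen for the purine and pyrimidine nucleotides that replication consumes. A bulk RNA library cannot tell fewer cells in S phase from less of these RNAs in each cell.

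Library depth ran from 3704170 to 13361406 gene counts, and members held between 32 and 3989 counts in a library. CPM (counts scaled to a common library size) below use TMM factors, a correction for composition. Mitochondrial ribosomal RNA took 2.97% of counts in replicate 3 at 0.04 mM and 1.62% in replicate 3 at 0.12 mM, and 0.402% or less in the other 13 libraries. All 10 basal breast epithelial markers were expressed. All 5 immune markers stayed under 1 CPM in every library, as did 4 of 7 fibroblast and 2 of 4 endothelial markers. CD3E, LUM and CDH5 were among those with 0 counts in all libraries. The summed fibroblast markers held 50.4 to 61.0 CPM at 0.04 mM and 33.3 to 45.8 CPM in full medium, and the summed endothelial markers 5.84 to 12.2 CPM at 0.04 mM and 3.77 to 5.68 CPM in full medium. Their part in the results was not tested.

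Most of the 48 genes had lower values with limited glutamine, by small amounts, and the test calls depended on whether replicate numbers were used. The largest log2 changes, in MCM2, POLA2, GINS2, CDC45, GINS1 and LIG1, lay between -0.47 and -0.59 at 0.04 mM, whereas PCNA, E2F1 and the E cyclins were not called. With edgeR's quasi-likelihood test and the replicate number as a block, 23 members fell and 0 rose at 0.04 mM against full medium at a Benjamini-Hochberg adjusted p under 0.05. Over all 13828 genes tested, 6.23% fell and 7.21% rose in that comparison. At 0.12 mM 19 members fell and 0 rose, against 3.9% and 4.41% of all genes. At 0.20 mM 18 fell and 0 rose, against 7.15% and 7.67%, and at 0.28 mM 5 fell and 0 rose, against 0.846% and 1.23%. The 4 comparisons share the 3 full medium libraries. The planned fit without the block called 0 members in any of them, and of all genes 0% fell in each, while 0.0434% rose at 0.04 mM and 0.0145% at 0.20 mM. In that fit 16 members had an unadjusted p under 0.05 at 0.04 mM (11.6% of all genes), 11 at 0.12 mM (8.03%), 11 at 0.20 mM (10.2%) and 6 at 0.28 mM (4.45%). DESeq2 without the block called 1 member, MCM2, which fell at 0.04 mM, where 0.398% of all genes fell. Below, "fell" and "rose" refer to the fit with the block, and log2 changes are limited glutamine over full medium from that fit.

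The median log2 change of the 48 members was -0.235 at 0.04 mM, -0.206 at 0.12 mM, -0.204 at 0.20 mM and -0.162 at 0.28 mM. The medians of all genes in the same fits were 0.00635, 0.00472, 0.00328 and 6.75e-05. At 0.04 mM 42 of 48 log2 changes were below 0, against 6784 of all 13828 genes. In 32 of 48 members the 0.04 mM library was below the full medium library of the same number in 3 of 3 pairs, against 20.8% of all genes. In 15 of 48 all 3 libraries at 0.04 mM lay below all 3 in full medium, against 8.21% of all genes. The same held for 17 members at 0.12 mM (6.66% of all genes), 15 at 0.20 mM (8.4%) and 10 at 0.28 mM (4.95%). Libraries of limited cells lay below full medium in 3 of 3 pairs for 27 members at 0.12 mM (18.6%), 27 at 0.20 mM (22.8%) and 26 at 0.28 mM (18.1%). The summed level of the members was 4043, 3981 and 3291 CPM at 0.04 mM, 4046, 4047 and 3390 CPM at 0.12 mM, 4141, 4158 and 3312 CPM at 0.20 mM and 4172, 4311 and 3447 CPM at 0.28 mM, against 4332, 4667 and 4398 CPM in full medium. Every limited library lay below every full medium library, and replicate 3 was the lowest of each limited group.

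**Figure D1:**
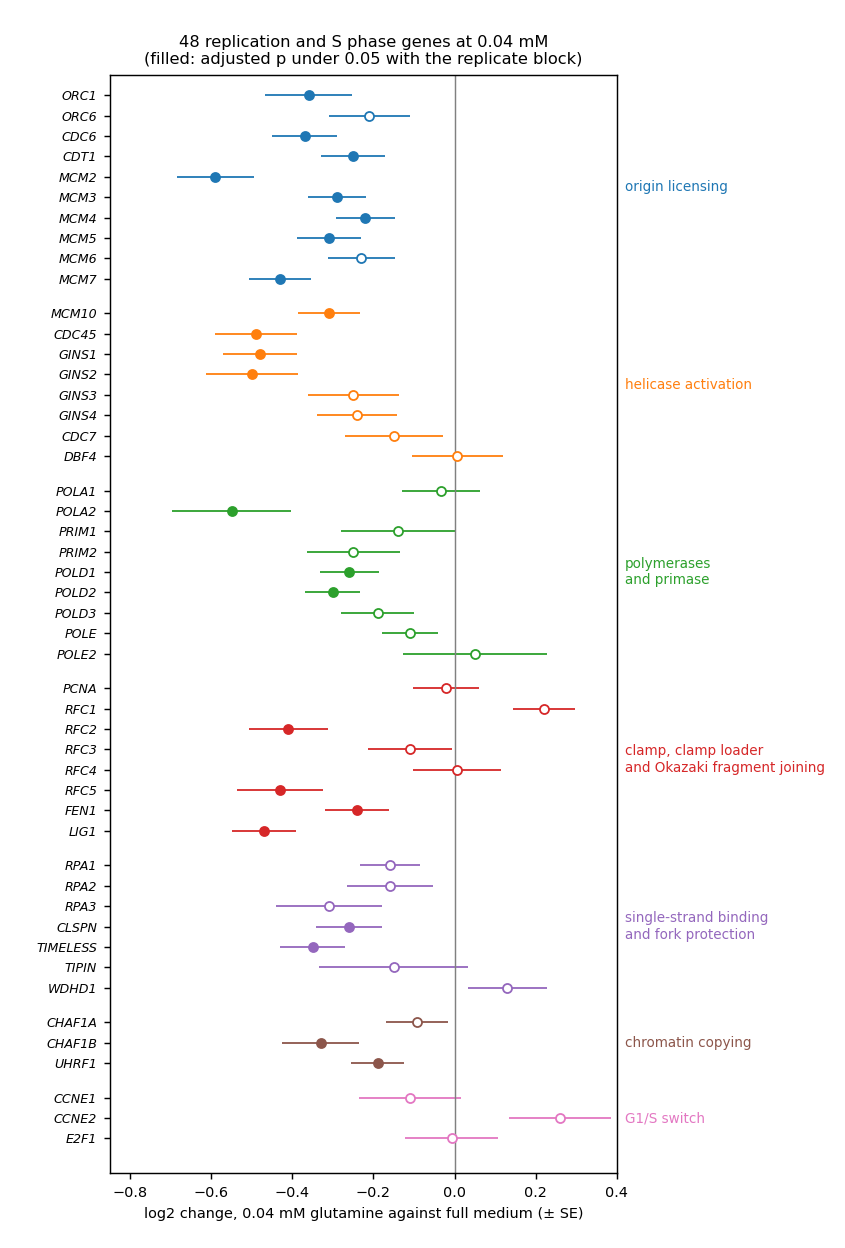
Log2 change at 0.04 mM glutamine over full medium (x axis, point ± SE, n = 3 libraries a group) for the 48 genes, grouped by role and with the replicate block in the fit. Filled points mark the 23 genes that fell, and 42 of the 48 points lie left of 0.

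The size of the difference depended on the replicate number. At 0.04 mM the median member difference between libraries of the same number was -0.0806 in replicate 1, -0.264 in replicate 2 and -0.384 in replicate 3, with 33, 43 and 45 of 48 members lower. At 0.12 mM it was -0.103, -0.258 and -0.315, with 32, 42 and 42 members lower, in the same order of replicates. At 0.20 mM it was -0.0443, -0.187 and -0.334, with 29, 40 and 40 lower. At 0.28 mM it was -0.0286, -0.137 and -0.306, with 31, 42 and 44 lower. No share of all genes was computed for single pairs. The sign of the median was the same in all 12 pairs, which share the same 3 full medium libraries. Both libraries rich in mitochondrial ribosomal RNA are replicate 3 and the shallowest of the series, with 3704170 and 5148795 gene counts. Their summed member levels were 3291 and 3390 CPM. The replicate 3 libraries at 0.20 and 0.28 mM held 0.006 and 0.00624% of that RNA and had summed levels of 3312 and 3447 CPM. In edgeR without the block, leaving out the 2 libraries rich in that RNA moved the member median at 0.04 mM from -0.229 to -0.13. At 0.12 mM it moved from -0.201 to -0.159. The part of this RNA and of depth in the replicate 3 values was not tested. Leaving out replicate 3 in every group left 8 members that fell at 0.04 mM (2.81% of all genes fell), 2 at 0.12 mM (1.28%), 4 at 0.20 mM (2.42%) and 0 at 0.28 mM (0%).

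**Figure D2:**
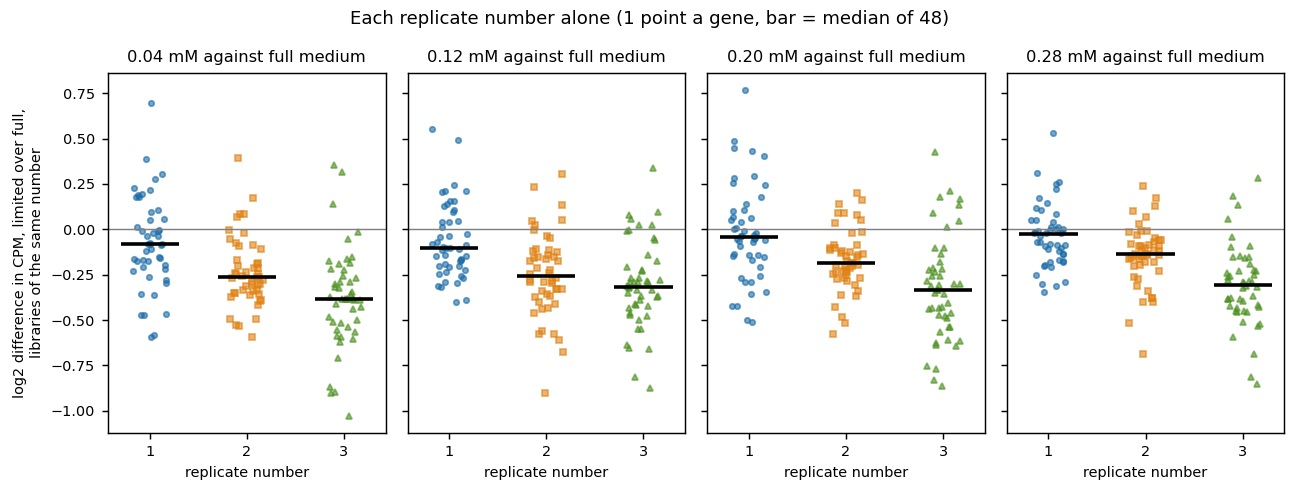
Log2 difference in CPM (y axis) between the limited and the full medium library of the same replicate number (x axis), 1 point a gene and 1 panel a concentration, with the median of 48 genes as a bar. All 12 medians are below 0, from -0.0286 in replicate 1 at 0.28 mM to -0.384 in replicate 3 at 0.04 mM. The panels share the same full medium libraries.

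Origin licensing held the most calls. At 0.04 mM 8 of its 10 members fell, with a median log2 change of -0.300, and the other two, ORC6 and MCM6, had -0.21 and -0.23 (adjusted p = 0.171 and 0.0571). At 0.12 mM 6 of 10 fell, at 0.20 mM 5 and at 0.28 mM 2. All 10 log2 changes were below 0 at every concentration.

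MCM2, a subunit of the helicase ring, lies on chromosome 3 at 127598411 to 127622436 (GRCh38.p14, plus strand). It had 174, 166 and 125 CPM at 0.04 mM, 187, 177 and 146 CPM at 0.12 mM, 183, 179 and 144 CPM at 0.20 mM and 187, 199 and 146 CPM at 0.28 mM, against 201, 240.1 and 256 CPM in full medium. All 12 limited libraries were below all 3 full medium libraries, and full medium replicate 1 was the nearest to them. Its log2 change was -0.59 ± 0.0943 (SE) at 0.04 mM (adjusted p = 9.29e-05 in edgeR with the block and 0.151 without it), the lowest of the 48 in that comparison. It was -0.46 at 0.12 mM, -0.48 at 0.20 mM and -0.41 ± 0.0915 at 0.28 mM (adjusted p = 0.0176 with the block). Another annotated gene, on the opposite strand, shares 23.6% of the exonic length of MCM2. Some of its counts could belong elsewhere if the counting ignored strand.

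MCM7, another subunit of the ring, lies on chromosome 7 at 100092728 to 100101397 on the minus strand. It had 212, 208 and 159 CPM at 0.04 mM, 221, 210 and 165 CPM at 0.12 mM, 224, 235 and 170 CPM at 0.20 mM and 234, 241 and 181 CPM at 0.28 mM, against 248, 266 and 261 CPM in full medium. The groups did not overlap at any concentration, and the limited replicate 3 libraries stood lowest. The fitted log2 change was -0.43 ± 0.0768 at 0.04 mM (adjusted p = 0.00029 in edgeR with the block and 0.285 without it). The change was -0.39 at 0.12 mM, -0.31 at 0.20 mM and -0.25 at 0.28 mM, the last with an adjusted p of 0.0654.

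CDC6, which helps to load the ring onto origins, had 101, 94.0 and 73.0 CPM at 0.04 mM, 105, 98.0 and 83.2 CPM at 0.12 mM, 110, 107 and 83.4 CPM at 0.20 mM and 117, 117 and 82.0 CPM at 0.28 mM, against 114, 119 and 112 CPM in full medium. Only at 0.28 mM did limited libraries reach the full medium range, in replicates 1 and 2. Its log2 change was -0.37 ± 0.0805 at 0.04 mM (adjusted p = 0.00219 in edgeR with the block and 0.374 without it), -0.27 at 0.12 mM, -0.21 at 0.20 mM and -0.14 at 0.28 mM, and the last 2 were not called. Its partner CDT1 had its lowest value at 0.20 mM (-0.37, adjusted p = 0.00145 with the block). The other ring subunits had values at 0.04 mM from -0.22 for MCM4 to -0.31 for MCM5, and ORC1, the largest origin recognition subunit, had -0.36.

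Promoters were examined because licensing and fork genes are textbook E2F targets. RefSeq windows (GRCh38.p14) from 250 bases before to 50 after the start were matched for 41 of the 48 members, in 52 windows. The letters searched, on both strands, were TTTCCCGC, TTTGGCGC, TTTCGCGC and TTTGCCGC. At least 1 was present in 42.3% of the member windows, against 5.02% of the windows of all tested genes and 3.31% of all windows of the table. By gene, 11 of 21 members that fell at 0.04 mM held it (52.4%) and 10 of 20 members that were not called (50%). The letters CCAAT, on either strand, were in 55.8% of member windows and 35% of those of tested genes. A match describes the sequence and is not evidence of a bound factor.

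The 3 members with such letters and the smallest p at 0.04 mM are printed 5′ to 3′ on the gene's strand, with the E2F letters in capitals. MCM2 (chr3:127598161-127598460, plus strand) holds a palindrome read on both strands as 2 overlapping matches, which begins 2 bases past the start. LIG1 (chr19:48170295-48170594, minus strand) holds 1 match at position -114 and MCM7 (chr7:100101348-100101647, minus strand) holds 2, the first at position -187, with positions counted from 0 at the start.
MCM2: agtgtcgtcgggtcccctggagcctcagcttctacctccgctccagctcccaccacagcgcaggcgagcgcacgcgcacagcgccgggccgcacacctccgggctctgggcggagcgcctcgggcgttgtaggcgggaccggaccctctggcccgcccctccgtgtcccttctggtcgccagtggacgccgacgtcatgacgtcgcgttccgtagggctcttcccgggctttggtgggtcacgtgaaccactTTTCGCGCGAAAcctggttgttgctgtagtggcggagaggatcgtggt
LIG1: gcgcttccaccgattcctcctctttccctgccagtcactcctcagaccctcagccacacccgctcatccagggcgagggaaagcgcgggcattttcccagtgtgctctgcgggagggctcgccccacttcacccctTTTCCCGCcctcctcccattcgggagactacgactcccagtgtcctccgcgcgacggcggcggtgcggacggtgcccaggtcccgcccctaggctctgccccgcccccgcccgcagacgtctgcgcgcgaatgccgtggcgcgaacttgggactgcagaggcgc
MCM7: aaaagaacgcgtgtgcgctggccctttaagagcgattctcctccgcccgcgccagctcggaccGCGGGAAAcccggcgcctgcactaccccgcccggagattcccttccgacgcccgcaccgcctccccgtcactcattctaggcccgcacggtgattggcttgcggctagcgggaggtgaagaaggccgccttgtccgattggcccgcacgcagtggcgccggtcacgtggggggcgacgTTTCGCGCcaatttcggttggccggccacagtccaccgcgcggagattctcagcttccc

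Helicase activation split into called and uncalled parts. MCM10, CDC45, GINS1 and GINS2 fell at 0.04 mM (4 of 8, median of the 8 -0.280), whereas the DDK subunits CDC7 and DBF4 had log2 changes of -0.15 and 0.0071 and were not called at any concentration. CDC45, the helicase cofactor on chromosome 22 at 19479466 to 19520612, had 41.1, 49.8 and 41.1 CPM at 0.04 mM, 50.7, 47.8 and 37.6 CPM at 0.12 mM, 46.4, 52.5 and 34.3 CPM at 0.20 mM and 52.3, 52.7 and 36.3 CPM at 0.28 mM, against 62.1, 61.8 and 58.5 CPM in full medium. No limited library reached the full medium range. The fitted log2 change was -0.49 ± 0.101 at 0.04 mM (adjusted p = 0.00128 in edgeR with the block and 0.283 without it), -0.42 at 0.12 mM, -0.47 at 0.20 mM and -0.37 at 0.28 mM, and it fell in each comparison.

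GINS1, a GINS subunit on chromosome 20 at 25407673 to 25448563, had 45.9, 49.0 and 44.6 CPM at 0.04 mM, 51.2, 46.4 and 46.5 CPM at 0.12 mM, 52.8, 60.1 and 48.8 CPM at 0.20 mM and 51.3, 64.4 and 45.1 CPM at 0.28 mM, against 63.5, 70.8 and 60.1 CPM in full medium. The 0.04 and 0.12 mM libraries lay below the full medium range, replicate 2 at 0.28 mM lay inside it and replicate 2 at 0.20 mM stood at its lower edge. The log2 change was -0.48 ± 0.0916 at 0.04 mM (adjusted p = 0.000531 in edgeR with the block and 0.157 without it) and -0.27 at 0.20 mM. Of the other GINS subunits, GINS2 had -0.50 at 0.04 mM and its lowest value, -0.54, at 0.12 mM. GINS4 fell at 0.12 and 0.20 mM (-0.34 and -0.33), and GINS3 was not called (-0.25 at 0.04 mM and 0.021 at 0.20 mM).

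Among polymerases and primase 3 of 9 members fell at 0.04 mM, at 0.12 mM and at 0.20 mM, and 1 at 0.28 mM. These were POLA2, POLD1 and POLD2, and POLD1 was the one called at 0.28 mM. POLA2, the second subunit of polymerase alpha, had 15.1, 11.1 and 8.65 CPM at 0.04 mM, 14.6, 10.5 and 12.3 CPM at 0.12 mM, 13.6, 11.7 and 12.7 CPM at 0.20 mM and 17.6, 12.9 and 12.3 CPM at 0.28 mM, against 19.3, 16.7 and 16.1 CPM in full medium. It was the lowest of the 48 per kilobase (3.04 CPM per kilobase in full medium), and only replicate 1 at 0.28 mM entered the full medium range. Its log2 change at 0.04 mM was -0.55 ± 0.146 (adjusted p = 0.0105 in edgeR with the block and 0.294 without it). Another annotated gene on the same strand shares 35.1% of its exonic length, so this value is uncertain.

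POLD2, the second subunit of polymerase delta, had 210.1, 185 and 180 CPM at 0.04 mM, 221, 187 and 203 CPM at 0.12 mM, 201, 203 and 169 CPM at 0.20 mM and 224, 193 and 192 CPM at 0.28 mM, against 258, 218 and 235 CPM in full medium. Replicate 1 was the highest library at 0.04, 0.12 and 0.28 mM and in full medium, and it entered the full medium range at 0.12 and 0.28 mM. Its log2 change was -0.30 ± 0.0677 at 0.04 mM (adjusted p = 0.00269 in edgeR with the block and 0.288 without it). POLD1, the catalytic subunit, had between -0.26 and -0.31 at the 4 concentrations and fell in each. The catalytic subunits of the other replicative polymerases were not called, with -0.033 for POLA1 and -0.11 for POLE at 0.04 mM, nor were the primase subunits PRIM1 and PRIM2 (-0.14 and -0.25), POLD3 (-0.19) and POLE2 (0.05).

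The clamp and its loader held both called and uncalled members. At 0.04 mM RFC2, RFC5, FEN1 and LIG1 fell (4 of 8), 2 of 8 fell at 0.12 mM and 2 at 0.20 mM (RFC2 and LIG1), and LIG1 alone fell at 0.28 mM. LIG1, the ligase that seals Okazaki fragments, lies on chromosome 19 at 48115445 to 48170344. It had 69.2, 58.2 and 55.1 CPM at 0.04 mM, 67.9, 54.9 and 56.6 CPM at 0.12 mM, 70.0, 58.6 and 53.0 CPM at 0.20 mM and 72.6, 63.2 and 63.5 CPM at 0.28 mM, against 88.8, 82.0 and 82.8 CPM in full medium. All 12 limited libraries were below all 3 full medium libraries. The fitted log2 change was -0.47 ± 0.0787 at 0.04 mM (adjusted p = 0.000145 in edgeR with the block and 0.157 without it), -0.50 at 0.12 mM, -0.49 at 0.20 mM and -0.35 at 0.28 mM.

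RFC2, a small subunit of the clamp loader, had 60.9, 60.2 and 62.2 CPM at 0.04 mM, 68.8, 62.9 and 53.0 CPM at 0.12 mM, 59.0, 68.5 and 46.0 CPM at 0.20 mM and 73.4, 70.8 and 51.4 CPM at 0.28 mM, against 84.0, 78.9 and 77.6 CPM in full medium. The groups did not overlap at any concentration. Its log2 change was -0.41 ± 0.0967 at 0.04 mM (adjusted p = 0.00414 in edgeR with the block and 0.302 without it) and lowest at 0.20 mM (-0.48). RFC1, the large subunit, went the other way in value, with 120, 139 and 152 CPM at 0.04 mM against 105, 123 and 122 CPM in full medium. The fitted log2 change was 0.22 ± 0.0764 and was not called (adjusted p = 0.0507 with the block), although it passed 0.05 under 5 other settings with the block.

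PCNA, the clamp itself and a common proliferation marker, had the highest level of the 48 per kilobase, 124 CPM per kilobase in full medium. It had 167, 203 and 165 CPM at 0.04 mM, 160.3, 195 and 156 CPM at 0.12 mM, 194, 222 and 158 CPM at 0.20 mM and 139.7, 201 and 138 CPM at 0.28 mM, against 146, 210.5 and 189 CPM in full medium. The groups overlapped at every concentration, and replicate 2 was the highest library of each group. Its log2 change was -0.022 ± 0.0816 at 0.04 mM, with an adjusted p of 0.898 in edgeR with the block. Of the other loader subunits, RFC3 and RFC4 had -0.11 and 0.0059 at 0.04 mM and RFC5 had -0.43.

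**Figure D3:**
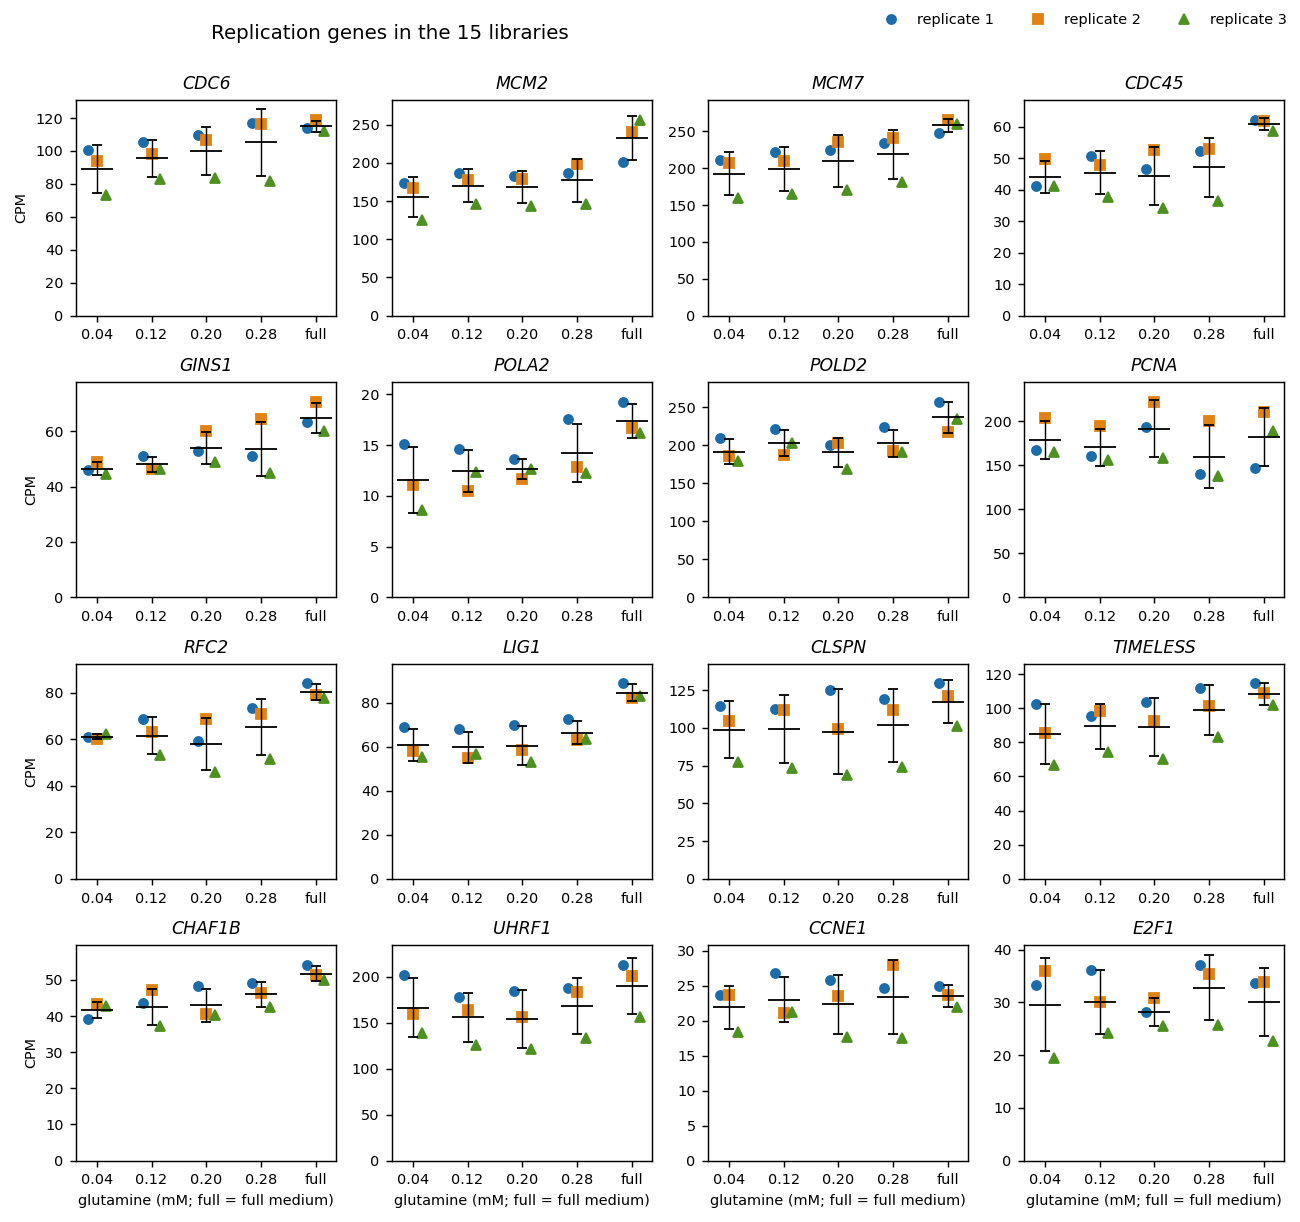
CPM (y axis, from 0) of 16 replication genes in each of the 15 libraries, by glutamine concentration (x axis), with replicate numbers by colour and shape and the group mean ± SD in black (n = 3). MCM2, MCM7, CDC45, RFC2, LIG1 and CHAF1B are below full medium in all 12 limited libraries. The groups overlap at every concentration for PCNA, CLSPN, UHRF1, CCNE1 and E2F1, and at some concentrations for the other genes shown.

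Single-strand binding and fork protection gave 2 calls of 7 at 0.04, at 0.12 and at 0.20 mM and 0 at 0.28 mM, each time CLSPN and TIMELESS. CLSPN encodes claspin, a mediator of the ATR checkpoint that travels with the fork. It had 115, 104 and 77.6 CPM at 0.04 mM, 112, 112 and 73.3 CPM at 0.12 mM, 125, 99.2 and 68.6 CPM at 0.20 mM and 119, 112 and 74.3 CPM at 0.28 mM, against 129.6, 121 and 101 CPM in full medium. The groups overlapped, but within each replicate number every limited library was below full medium. Its log2 change at 0.04 mM was -0.26 ± 0.0806 (adjusted p = 0.0282 in edgeR with the block and 0.72 without it).

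TIMELESS, a fork protection factor, had 102, 85.6 and 67.0 CPM at 0.04 mM, 95.4, 98.6 and 74.1 CPM at 0.12 mM, 103, 92.8 and 70.3 CPM at 0.20 mM and 112, 102 and 82.9 CPM at 0.28 mM, against 115, 109 and 102 CPM in full medium. Every limited library was below the full medium library of its number, and the groups did not overlap at 0.12 mM. Its log2 change at 0.04 mM was -0.35 ± 0.0797 (adjusted p = 0.00296 in edgeR with the block and 0.447 without it). Its partner TIPIN was not called (-0.15), nor were the subunits of the single-strand binding protein, RPA1, RPA2 and RPA3 (-0.16, -0.16 and -0.31), or WDHD1, which couples the helicase to polymerase alpha (0.13).

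In chromatin copying CHAF1B and UHRF1 fell at 0.04 mM (2 of 3), UHRF1 alone at 0.12 mM and both again at 0.20 mM. CHAF1B, a subunit of the histone chaperone CAF-1, had 39.1, 43.3 and 42.7 CPM at 0.04 mM, 43.5, 47.1 and 37.2 CPM at 0.12 mM, 48.2, 40.5 and 40.2 CPM at 0.20 mM and 49.3, 46.4 and 42.5 CPM at 0.28 mM, against 54.2, 51.3 and 49.9 CPM in full medium. The groups did not overlap at any concentration. Its log2 change at 0.04 mM was -0.33 ± 0.0952 (adjusted p = 0.0177 in edgeR with the block and 0.288 without it). The large CAF-1 subunit CHAF1A was not called (-0.093).

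UHRF1, which recognises hemimethylated DNA behind the fork, had 201, 159 and 138 CPM at 0.04 mM, 178, 164 and 125 CPM at 0.12 mM, 184, 157 and 122 CPM at 0.20 mM and 188, 183 and 133 CPM at 0.28 mM, against 213, 201 and 156 CPM in full medium. The groups overlapped, with replicate 3 lowest in each and every limited library below full medium of the same number. The fitted log2 change was -0.19 ± 0.0664 at 0.04 mM (adjusted p = 0.0486 in edgeR with the block and 0.744 without it) and -0.31 at 0.20 mM.

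The G1/S switch gave 0 calls of 3 at any concentration with all libraries in the fit. E2F1, the factor that drives many of the genes above, had 33.4, 35.9 and 19.5 CPM at 0.04 mM, 36.1, 30.0 and 24.1 CPM at 0.12 mM, 28.1, 30.8 and 25.5 CPM at 0.20 mM and 37.1, 35.4 and 25.7 CPM at 0.28 mM, against 33.6, 33.8 and 22.6 CPM in full medium. The groups overlapped, and the spread between replicate numbers exceeded any difference between groups. Its log2 change at 0.04 mM was -0.0072 ± 0.115 (adjusted p = 0.978 in edgeR with the block).

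Cyclin E binds CDK2 at S phase entry. CCNE1 had 23.7, 23.7 and 18.4 CPM at 0.04 mM, 26.8, 21.0 and 21.3 CPM at 0.12 mM, 25.8, 23.5 and 17.7 CPM at 0.20 mM and 24.6, 27.99 and 17.6 CPM at 0.28 mM, against 25.0, 23.7 and 22.0 CPM in full medium. CCNE2 had 21.4, 29.2 and 20.0 CPM at 0.04 mM, 18.3, 24.4 and 19.8 CPM at 0.12 mM, 20.2, 25.5 and 21.0 CPM at 0.20 mM and 16.3, 20.9 and 19.0 CPM at 0.28 mM, against 20.7, 22.2 and 15.6 CPM in full medium. Neither gene separated the groups. The log2 change at 0.04 mM was -0.11 ± 0.126 for CCNE1 (adjusted p = 0.627 in edgeR with the block) and 0.26 ± 0.125 for CCNE2 (adjusted p = 0.167). Without full medium replicate 1, CCNE2 passed as higher at 0.04 mM, with 0.403 and an adjusted p of 0.0426 in edgeR with the block. CCNE2 shares 37.1% of its exonic length with INTS8 on the opposite strand, and the strand rule of the counting is not given in the sources used here.

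Side by side, 5 members fell in each of the 4 comparisons with full medium, MCM2, MCM5, CDC45, POLD1 and LIG1. A further 10 fell in 3 comparisons, 6 in 2 and 3 in 1, and 24 in none. No share of all genes was computed for this tally, and the comparisons share the full medium libraries. The call at 0.28 mM was lost in 11 of 16 settings with the block for MCM5 and in 8 for POLD1. It was lost in 6 each for MCM2, CDC45 and LIG1, and for all 5 without replicate 3 in every group. Full medium had the highest of the 5 group means in 36 of 48 members, and 0.04 mM had the lowest in 21, 0.20 mM in 12, 0.28 mM in 7, 0.12 mM in 6 and full medium in 2, WDHD1 and RFC1. The order of means was not computed for all genes. The genes called had a higher GC content: at 0.04 mM the median over the longest transcripts was 51.7% in the 23 that fell and 43.6% in the 25 not called. They also had higher levels, with a median in full medium of 92.2 CPM against 38.5 CPM in those not called. The part of level in the calls was not tested, and a missing call is not evidence of no change. With a GC and length offset in the blocked fit 20 members fell at 0.04 mM, where 5.98% of all genes did, with a median log2 change of -0.225. These held 19 of the 23, and ORC1, CDT1, FEN1 and UHRF1 were not among them. At 0.20 mM the offset gave 14 members that fell (3.83% of all genes), 11 of them among the 18 called without it.

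**Figure D4:**
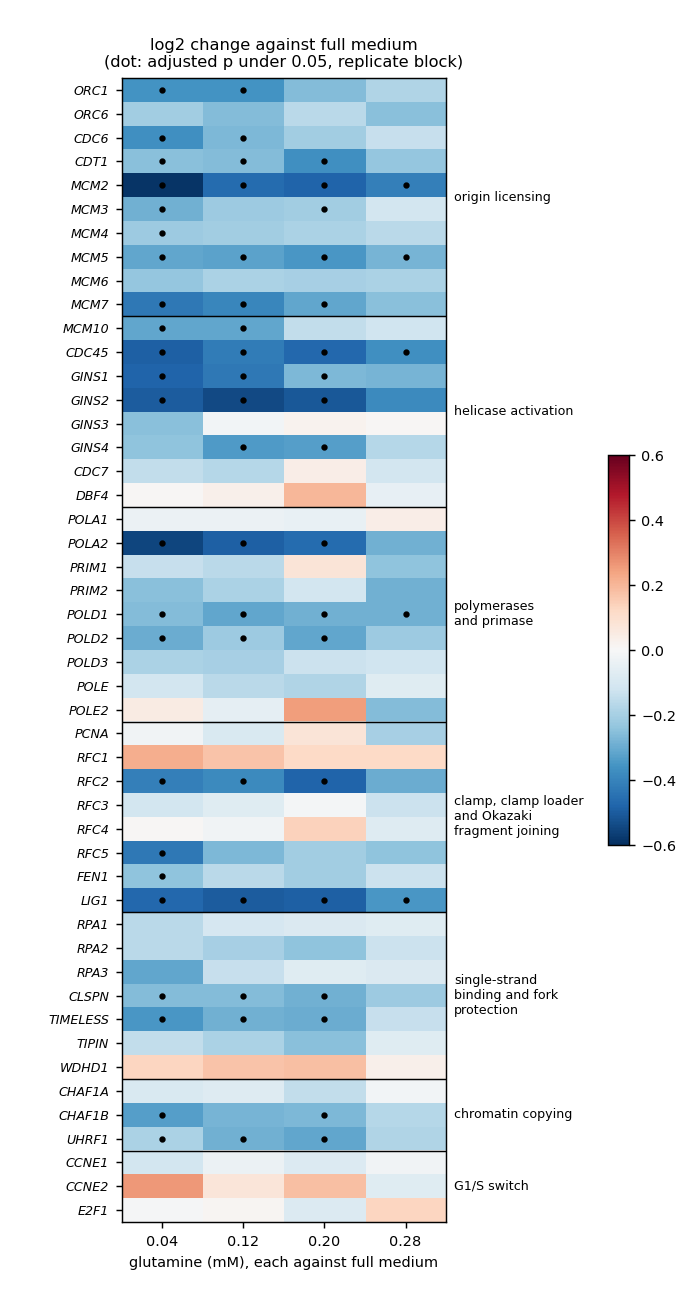
Log2 change over full medium for each of the 48 genes (rows, grouped by role) at 4 glutamine concentrations (columns), from the fit with the replicate block, where blue is lower, red is higher and a dot marks an adjusted p under 0.05. The dots number 23, 19, 18 and 5 from 0.04 to 0.28 mM, and the 4 columns share the same 3 full medium libraries.

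Within the limited range no member was called in either fit. At 0.04 mM against 0.28 mM the median log2 change of the 48 was -0.0748 in edgeR with the block. Of the 48, 36 were below 0, against 6755 of all 13828 genes. There, 0 members passed (0.0289% of all genes fell and 0.0145% rose). In that fit 9 members had an unadjusted p under 0.05, where 9.02% of all genes had, and 1 in the fit without the block, where 2.05% had. In 1 member, the 3 libraries at 0.04 mM lay below all 3 at 0.28 mM (3.3% of all genes), and 20 were lower in 3 of 3 pairs (15.7%). CDC6 had the smallest p, with a log2 change of -0.23 ± 0.0805 and an adjusted p of 0.366 with the block. At 0.20 mM against 0.28 mM the median was -0.0645, and 0 members passed with or without the block (0.166% of all genes fell and 0.535% rose with it). There, 7 members had an unadjusted p under 0.05 with the block, where 13.9% of all genes had, and 0 without it, where 2.13% had. In 0 members did all 3 libraries at 0.20 mM lie below all 3 at 0.28 mM (3.76% of all genes), and 20 were lower in 3 of 3 pairs (22%). PCNA had the smallest, a log2 change of 0.28 ± 0.0798 with an adjusted p of 0.0894, and it passed 0.05 with the block under 2 other settings, no filter on low counts and the 2 groups alone. The slope on log2 concentration over the 12 limited libraries had a median of 0.0192 per log2 unit, with 0 members called in either fit (0% of 13631 genes), and 11 at an unadjusted p under 0.05 with the block (7.7% of all genes) and 1 without it (2.18%). DESeq2 also called 0 members in each of these 3 comparisons, with and without the block.

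Other genes around replication were counted over lists that were set down with earlier results known. At 0.04 mM in the blocked fit, 8 of 12 deoxynucleotide supply genes fell and 1 rose, with a median log2 change of -0.304. Among them, DTYMK, thymidylate kinase, had 72.8 ± 4.13 CPM at 0.04 mM and 96.0 ± 6.09 CPM in full medium (SD, n = 3 each), a log2 change of -0.40. Both ribonucleotide reductase genes called went in opposite directions, with -0.31 for RRM2, the S phase subunit, and 0.36 for RRM2B, the p53-induced subunit and the gene that rose. Of 29 G2 and M phase genes tested 12 fell and 0 rose, with a median of -0.207. CDC20, the activator of the anaphase-promoting complex, had 224 ± 52.3 CPM at 0.04 mM and 361 ± 22.2 CPM in full medium (log2 change -0.71), and MYBL2, a transcription factor of late cell cycle genes, had -0.43. The proliferation marker MKI67 had -0.29.

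The remaining lists had medians nearer 0. Of 14 other chromatin copying genes 5 fell and 0 rose (median -0.139): CDCA7 (-0.44), the histone chaperones ASF1B (-0.31) and NASP (-0.21), SSRP1 of the FACT complex (-0.23) and the maintenance methyltransferase DNMT1 (-0.21). Of 21 other E2F, pocket protein and S phase kinase genes 5 fell, E2F4 (-0.30), E2F2 (-0.47), the E2F partner TFDP1 (-0.23), CKS1B (-0.31) and SKP2 (-0.26). TFDP2, another E2F partner, rose (0.34), and the median of the list was -0.0539. Of 31 tested of 33 other replication factors 3 fell and 0 rose (median -0.0395), POLE3 (-0.31), CHTF18 (-0.43) and RECQL4 (-0.32). Of 11 checkpoint genes 2 fell and 0 rose (median -0.00585), the phosphatase CDC25A and RHNO1 (-0.40 each). All of these counts come from the comparison with the block in which 6.23% of all genes fell and 7.21% rose, and without the block 0 genes fell. At 0.20 mM with the block, 7.15% of all genes fell and 7.67% rose. There, 8 G2 and M phase genes fell and 5 rose (median -0.0836), and 8 deoxynucleotide supply genes fell and 1 rose (-0.281). For other replication factors the counts were 6 and 2 (0.0428), and for other chromatin copying genes 3 and 2 (-0.0786). The E2F list had 2 and 2 (0.0398) and the checkpoint list 2 and 0 (-0.0259). Beyond 2 examples a list, the genes of the other lists were named after their values were seen.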

How the data were processed

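Total RNA was depleted of ribosomal RNA and spiked with ERCC controls before library preparation, per the labels' protocols. The authors deposited 1 table of integer counts per gene, used as deposited, and the submitters' processing notes name hg38 and GRCh38.p14. How reads were aligned, annotated and assigned to strands is not given in the sources used here. Each of the 15 columns belongs to 1 sample by its name. Symbols were found for 42343 of 62754 Ensembl genes, coordinates and promoter windows are those of RefSeq (GRCh38.p14), and exonic overlap, length and GC content are those of GENCODE, a gene set that may differ from the authors'. Per-kilobase levels use the union exon length.

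Genes were filtered with filterByExpr (minimum count 10, minimum total 15), which kept 13828 genes, and fitted with edgeR 4.0.16 (R 4.3.3) as 1 quasi-likelihood model of all 15 libraries with TMM factors, 1 term per group and Benjamini-Hochberg adjustment over all genes tested. The slope used the 12 limited libraries and 13631 genes. The same model was fitted with the replicate number as a block. After subtraction of the group means, same-numbered libraries deviated together in 30 of 30 pairs (correlation over 0.1, range 0.184 to 0.489), differently numbered ones had -0.406 to 0.0549, and for 15 of 15 libraries the best match carried its own number. What the numbers stand for is not stated in the labels. DESeq2 1.42.0 and the other alternatives are described with the closing values. The scripts were tested on simulated data. Depth limits precision for members of few counts.

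Members and lists were chosen with earlier results of these data known, although the rule for the members uses no measured value. Values in every library are given for the 2 members of each role with the smallest p at 0.04 mM against full medium in the blocked fit, and always for MCM2, PCNA, CDC6, CCNE1, CCNE2 and E2F1. RFC1 was added after its values were seen. The p-values adjust over all genes, and no test was made of the members as a set. Items withheld from this text are not reported here.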

Additional observations from a re-analysis of the deposited data

How the results depend on the processing

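Adding the replicate number as a block to the planned fit took the count of members called from 0 to 23 at 0.04 mM, 19 at 0.12 mM, 18 at 0.20 mM and 5 at 0.28 mM, all against full medium, and to 0 in the comparisons within the limited range. Without the block, DESeq2 called 1 member and edgeR with no filter on low counts 1 at 0.04 mM, MCM2 in each case. Of all genes, 0.398% fell in the first and 0.171% in the second. With the block, scaling to the ERCC spike-ins left 6 at 0.04 mM and 6 at 0.20 mM. The same scaling gave 25 at 0.12 mM and 4 at 0.28 mM, where the median of all genes also moved below 0. With the block, leaving out the 2 libraries with most mitochondrial ribosomal RNA left 15 at 0.04 mM and 12 at 0.12 mM. The 2 groups alone gave 7 at 0.12 mM. No filter gave 8 and thinning all libraries to 3704170 counts gave 2 at 0.28 mM. With the block and 1 library or replicate number left out, calls ran from 8 to 26 at 0.04 mM, 2 to 24 at 0.12 mM, 4 to 26 at 0.20 mM and 0 to 10 at 0.28 mM; the lower end came without replicate 3 in every group, and 0 also without full medium replicate 3 or 0.28 mM replicate 1 or 3. Without full medium replicate 3 alone 14, 7 and 10 were left at 0.04, 0.12 and 0.20 mM, without 0.04 mM replicate 2 12 at 0.04 mM, without 0.12 mM replicates 1 and 2 there were 12 and 11 at 0.12 mM, and without full medium replicate 1 there were 10 at 0.28 mM. MCM2, MCM7, CDC45, GINS1 and LIG1 lost their call at 0.04 mM in 0 of 16 settings with the block. Shares of all genes that fell are not set beside the counts with the block in this paragraph, which show only how calls moved between settings.

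The median log2 change of the members stayed below 0 against full medium in all settings run. It ran from -0.301 to -0.13 at 0.04 mM, -0.292 to -0.15 at 0.12 mM, -0.264 to -0.0986 at 0.20 mM and -0.236 to -0.0713 at 0.28 mM with single libraries or numbers left out. ERCC scaling gave -0.414 (-0.395 with the block) at 0.12 mM and -0.297 (-0.297) at 0.28 mM, where the median of all genes was then -0.177 and -0.129 with the block. Within the limited range the direction was not stable. The median of 0.04 against 0.28 mM was 0.0469 under ERCC scaling (0.0539 with the block), 0.0218 without the 2 libraries rich in mitochondrial ribosomal RNA, and -0.16 to 0.0216 with single libraries left out (-0.034 with the block without 0.28 mM replicate 2). The median of 0.20 against 0.28 mM was 0.0223 (0.0177) under ERCC scaling and -0.165 to 0.0386 with single libraries left out. With the block it was -0.0274 without 0.20 mM replicate 3, and -0.0305, -0.0243 and -0.0982 without 0.28 mM replicates 1, 2 and 3. There, with the block, no filter called 1 member (0.549% of all genes) and the 2 groups alone 3 (11%). The slope was -0.0102 (-0.0128) under ERCC scaling, -0.00718 without the 2 libraries and -0.00559 to 0.0419 with single libraries left out (0.0273 with the block without 0.04 mM replicate 2), and over all 15 libraries it was 0.0399 (0.0405) with 3 members called, against 1.14% of all genes (26 with the block, against 15.6%). The causes were not tested.

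PCNA, CCNE1 and E2F1, never called at 0.04 mM, changed sign. PCNA was 0.0345 (0.0357 with the block) with the GC and length offset, 0.0246 without the 2 libraries, and up to 0.0918 without the block and 0.0974 with it when single libraries were left out (0.00744 without 0.04 mM replicate 2). Without replicate 3 in every group it was 0.0764. CCNE1 was 0.00416 without the 2 libraries and up to 0.00407 with single ones left out. E2F1 without the block was -0.0313 under ERCC scaling, -0.0127 with no filter, -0.00103 with a filter of 5 CPM, -0.00566 in the 2 groups alone and down to -0.162 with single libraries left out. With the block E2F1 was 0.00211 with DESeq2 size factors, 0.0883 with the GC and length offset, 0.0749 without the 2 libraries, 0.0186 thinned, and 0.0726 and 0.0213 without 0.04 mM replicate 3 and full medium replicate 2. Without replicate 3 in every group it was 0.0401.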
